A study of Mus musculus with 6 samples.

Results

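The interferon-inducible GTPases of D10 T cells followed here were 10 of the 41079 genes listed in the deposited expression table, namely Gm12250, Irgm1, Irgm2, Igtp, Iigp1, Tgtp1, Tgtp2, Gbp2, Gbp3 and Gbp7. They were found by an exact match of the gene symbol, and each symbol matched 1 gene. The group was selected on results of the same contrast described below, namely the lower level of Gm12250 and related genes at 26°C. The differences between temperatures of these 10 genes are therefore given as a description, with their spread and without a test, and nothing is read from their size or their number.

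D10 (D10.G4.1) is labelled as a cloned mouse helper T cell line. Cells kept for 24 h at 37°C (non-acclimated T cells, 3 replicates, R1 to R3) were compared with cells kept for 24 h at 26°C (cold-acclimated T cells, 3 replicates). The labels give no genetic change and no added agent for either group. The labels call RNA extracted in old and new batches biological replicates without saying which library came from which batch, so a difference between the replicate numbers and one between batches cannot be told apart. The comparison asks how a day below body temperature changes the transcripts of these cells, here those of the GTPases that defend cells against intracellular microbes. Expression is in TPM, a measure of transcript abundance in which the reads of a gene are divided by its length and each library is brought to the same total.

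Interferons bind receptors that activate JAK kinases and STAT transcription factors. Type II interferon, interferon-gamma, acts through STAT dimers on GAS elements. Type I interferons act through a complex that holds STAT2 and IRF9 on ISRE elements, and IRF1 binds ISRE-like sites as well. The immunity-related GTPases (IRG proteins) and the guanylate-binding proteins (GBPs) are among the most strongly induced targets. Effector IRG proteins with a lysine in the first GTP-binding loop (GKS type) coat the vacuoles of parasites and bacteria, and IRGM proteins with a methionine in its place (GMS type) guard the membranes of the cell itself by holding the effectors inactive. GBPs act on the same vacuoles and on bacteria in the cytosol. Gm12250 encodes Irgb10, a GKS protein of this family.

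The 6 libraries held 16899606 to 31290821 reads, as recovered from the whole-read steps of the TPM values. Their cell type label was checked against marker genes, and the libraries differed by replicate number. Cd4, the coreceptor in the label, was at 1.09, 0.0351 and 310 TPM in non-acclimated R1, R2 and R3 and at 1.3, 0.352 and 328 TPM in cold-acclimated R1, R2 and R3. The label CD4+ was thus met by R3 of each condition and not by the other 4 libraries. Whether R1 and R2 came from the same stock of cells as R3 was not tested, so the spread between replicates may hold a difference between stocks as well. Cd3e, a chain of the T cell receptor complex, lay between 476 and 874 TPM in all 6, and Gata3, the factor of type 2 helper cells, between 387 and 751 TPM. Of the 13 listed T cell markers, 11 had a mean TPM of at least 1 over the libraries. The 7 B cell markers summed to at most 1.11 TPM, with Ms4a1 and Blnk at 0 throughout, and the 5 natural killer cell markers to at most 0.751 TPM, with Ncr1, Klrb1c and Klra8 at 0. The 8 macrophage markers summed to 2.46 to 15.9 TPM at 37°C and 2.69 to 21.2 TPM at 26°C. Among them Cd14 was at 0, and Cd68 and Lyz2 had a mean TPM of at least 1. The 5 dendritic cell markers summed to 0.0745 to 6.16 TPM at 37°C and 0.0638 to 2.36 TPM at 26°C. Among them Siglech was at 0, and Itgax had a mean TPM of at least 1. The 5 erythroid markers summed to 79.9 to 485 TPM at 37°C and 61.3 to 474 TPM at 26°C, nearly all from Hba-a1, with Hbb-bs and Hbb-bt at 0. The part of these cells in the results was not tested. The same split by replicate number ran through the interferon response. The 39 listed interferon-stimulated antiviral genes summed to 5204, 6220 and 1760 TPM in non-acclimated R1, R2 and R3 and to 2718, 3819 and 1798 TPM in cold-acclimated R1, R2 and R3. The ratio of the sum at 37°C to that at 26°C was 1.92 in R1, 1.63 in R2 and 0.979 in R3, so R3 held fewer such transcripts at 37°C. Without the 2 most abundant of these genes, Bst2 and Ifitm3, the ratio was 2.81 in R1, 3.12 in R2 and 1.17 in R3. Of the 37 tested genes of the list, 36 were lower at 26°C in R1, 35 in R2 and 23 in R3, with median log2 differences of -1.60, -1.82 and -0.15, and 23 were lower in all 3 replicates. For this reason, and because non-acclimated R2 stood highest, the values are given for each replicate.

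**Figure D1:**
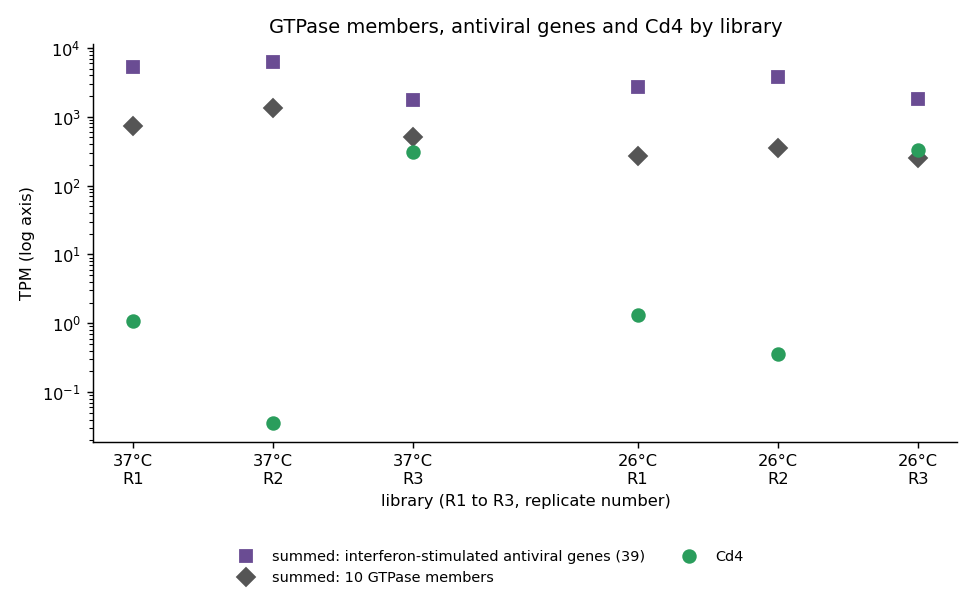
Summed TPM of the 10 GTPase members, summed TPM of 39 interferon-stimulated antiviral genes, and the TPM of Cd4 in each of the 6 libraries, on a log axis, with 1 point per library. Cd4 is at 310 and 328 TPM in R3 and at 1.3 TPM or less in the other 4 libraries, and the members sum to 512 to 1358 TPM at 37°C against 255 to 350 TPM at 26°C.

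Promoters of this family are known for elements through which interferons act, and they are shown so that the letters can be seen beside the expression values. The sequences are those of RefSeq (GRCm38.p6), taken as promoter windows from 250 bases before to 50 bases after the start site for 9 of the 10 members. Iigp1 was left out of the promoter search and its promoter is not reported here. Each window of the 9 matched GRCm39 exactly once, and the positions below are on GRCm39. The last 110 bases before the start site are printed 5′ to 3′ on the strand of the gene, with capitals for matches to the ISRE pattern GAAANNGAAA, which reads TTTCNNTTTC on the other strand, or to the palindromic GAS pattern TTCNNNGAA. They lie at chr11:58074559-58074668 (plus strand) for Gm12250, chr11:58105693-58105802 (plus) for Irgm2, chr11:58090272-58090381 (plus) for Igtp, chr11:48883074-48883183 (minus) for Tgtp1, chr11:48955040-48955149 (minus) for Tgtp2, chr11:48762248-48762357 (minus) for Irgm1, chr3:142326314-142326423 (plus) for Gbp2, chr3:142265695-142265804 (plus) for Gbp3 and chr3:142235987-142236096 (plus) for Gbp7.
Gm12250: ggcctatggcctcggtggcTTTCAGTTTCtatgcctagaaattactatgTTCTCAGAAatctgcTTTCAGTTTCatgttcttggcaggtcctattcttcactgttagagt
Irgm2: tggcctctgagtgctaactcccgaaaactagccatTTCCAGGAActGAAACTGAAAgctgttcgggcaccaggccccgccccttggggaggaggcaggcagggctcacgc
Igtp: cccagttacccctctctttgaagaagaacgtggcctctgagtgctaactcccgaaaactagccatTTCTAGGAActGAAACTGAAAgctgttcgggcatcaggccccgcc
Tgtp1: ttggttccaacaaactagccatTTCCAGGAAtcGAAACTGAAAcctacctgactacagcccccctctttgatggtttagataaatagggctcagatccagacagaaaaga
Tgtp2: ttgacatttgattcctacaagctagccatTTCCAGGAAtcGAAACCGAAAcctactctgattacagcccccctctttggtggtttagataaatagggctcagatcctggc
Irgm1: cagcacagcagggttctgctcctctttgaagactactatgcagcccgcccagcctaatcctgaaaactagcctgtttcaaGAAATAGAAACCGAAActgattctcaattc
Gbp2: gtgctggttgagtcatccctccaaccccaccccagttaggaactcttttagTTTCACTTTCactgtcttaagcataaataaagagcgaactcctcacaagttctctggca
Gbp3: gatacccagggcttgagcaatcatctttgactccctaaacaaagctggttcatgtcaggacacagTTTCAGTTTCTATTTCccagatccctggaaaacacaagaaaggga
Gbp7: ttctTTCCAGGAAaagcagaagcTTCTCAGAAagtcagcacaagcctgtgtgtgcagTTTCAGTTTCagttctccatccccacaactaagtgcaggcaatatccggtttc

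An ISRE match was found in all 9 members searched, against 3.99% of the 27025 genes with a promoter window. A GAS match was found in 6 of the 9, namely Gm12250, Irgm2, Igtp, Tgtp1, Tgtp2 and Gbp7, against 9.55% of all genes. Gm12250 held 2 ISRE matches of the same letters, beginning 91 and 46 bases before its start site, with a GAS match beginning between them at 61 bases. In Irgm1 and in Gbp3 a pair of overlapping ISRE matches formed 1 run. The start site of the Gbp3 window shown lies 24 bases inside the bounds of Gbp3 given below. A further window of Gbp3, from a later start site, held no match to either pattern. In Irgm2, Igtp, Tgtp1 and Tgtp2 a GAS match began 11 bases before the ISRE match, an arrangement held by 5 of the 27025 genes. The fifth was Gm12185, a gene between Irgm1 and Tgtp1. This spacing was not set beforehand but taken from these promoters, so nothing is read from the count. Only a GAS match ahead of the ISRE match on the strand of the gene was counted, not the reverse order. These promoters are not independent of each other: the printed stretches of Irgm2 and Igtp share an unbroken run of 38 bases, and those of Tgtp1 and Tgtp2 one of 27 bases. A match describes the letters and does not show that a factor binds there.

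**Figure D2:**
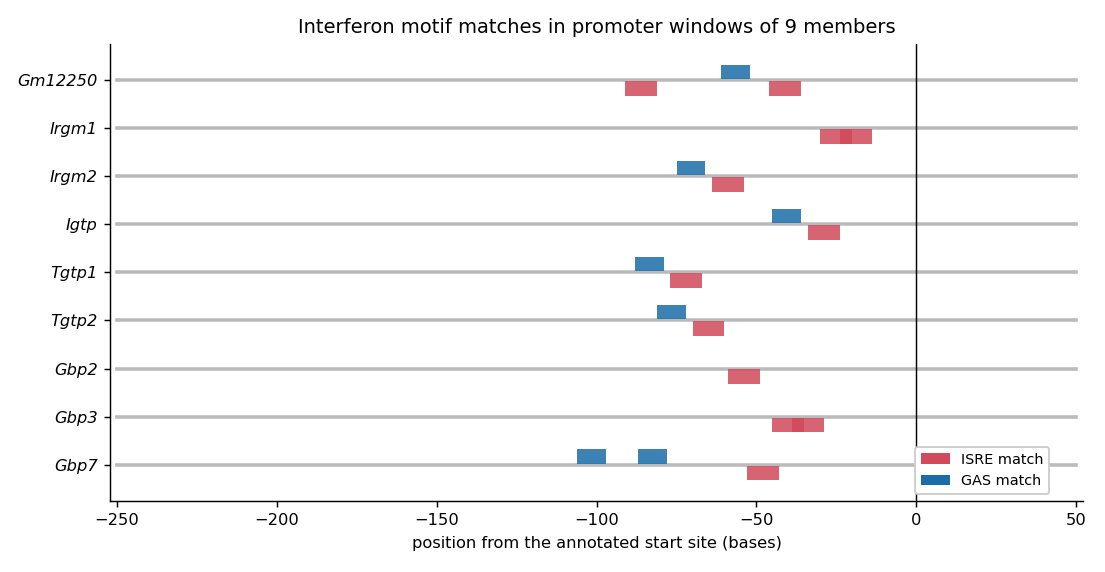
Position of ISRE and GAS matches in the promoter windows of 9 members, with the distance from the annotated start site in bases on the horizontal axis, negative before the start. Grey lines are the windows from 250 bases before to 50 bases after the start, and all matches lie within the last 110 bases before it. The further window of Gbp3, which held no match, is not drawn.

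The coding sequences separated the members into the known types. The first GTP-binding loop was found in GENCODE transcripts by its sequence pattern. The stretches of 4 members are shown to set the types side by side, with the codon of the deciding residue in capitals, AAG for lysine and ATG for methionine.
Gm12250: ggggagacaggggcagggAAGtcc
Tgtp1: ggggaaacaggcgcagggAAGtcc
Irgm1: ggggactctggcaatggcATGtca
Igtp: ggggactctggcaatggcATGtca
Irgm2 held the same 24 bases as Irgm1 and Igtp, and Tgtp2 the same as Tgtp1. Gm12250 is listed as protein coding in the deposited table and as a long noncoding RNA in GENCODE, where the longest open reading frame of its transcript has 417 codons, close to the 407 to 423 codons of the other IRG members. Tgtp1 and Tgtp2 differed at 4 of 1245 coding bases (99.7% identity), so reads of one can be counted for the other and the values of each are uncertain. The next closest pair of IRG genes, Irgm2 and Igtp, was 67.9% identical over the alignment.

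Gm12250 (GRCm39 chr11:58074669-58081024, plus strand), the GKS effector Irgb10, was at 84.5, 132 and 58 TPM in non-acclimated R1, R2 and R3 and at 6.12, 2.47 and 6.56 TPM in cold-acclimated R1, R2 and R3. The conditions did not overlap, and the highest library at 37°C and the lowest at 26°C were both R2. The level at 37°C was 13.8-fold that at 26°C in R1, 53.6-fold in R2 and 8.84-fold in R3. On the log2(TPM + 1) scale, used for all differences below, the change was -3.94 with a standard deviation over the 3 pairs of 1.19. These values rested on 1565, 2939 and 1886 reads at 37°C and on 143, 60 and 181 reads at 26°C.

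At 37°C the other GKS effectors had lower mean levels than Gm12250 and differed more between replicates. Tgtp1 (chr11:48876156-48883073, minus strand), which encodes Irgb6, was at 9.61, 33.9 and 9.11 TPM at 37°C and at 5.56, 14.3 and 4.29 TPM at 26°C. Tgtp2 (chr11:48948023-48955039, minus strand) was at 9.06, 21.4 and 6.41 TPM at 37°C and at 5.13, 9.35 and 3.44 TPM at 26°C. Both were lower at 26°C in each replicate, by 0.94 (SD 0.25, n = 3) for Tgtp1 and 0.86 (SD 0.23, n = 3) for Tgtp2 on the log2 scale, but R2 at 26°C lay above R1 and R3 at 37°C, so the conditions overlapped. Iigp1 (chr18:60506688-60525706, plus strand), which encodes Irga6, was at 2.3, 107 and 0.31 TPM at 37°C and at 0.498, 11.2 and 0.0563 TPM at 26°C. The replicates of 1 condition thus differed by 343-fold at 37°C and by 199-fold at 26°C, far more than the conditions did within a replicate. The ratio of 37°C to 26°C for Iigp1 was 4.63 in R1 (95% exact counting interval 2.58 to 8.82), 9.52 in R2 (8.52 to 10.7) and 5.51 in R3 (1.25 to 50.3, from 13 and 2 reads). These intervals cover counting error only. The log2 difference of Iigp1 was -1.53 with a standard deviation of 1.45, and it became 0.37 when non-acclimated R2 was left out of the unpaired comparison.

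Among the GMS regulators, Igtp and Irgm1 had the highest median levels of all 10 genes at both temperatures. Igtp (chr11:58090382-58098418, plus strand), which encodes Irgm3, was at 216, 364 and 150 TPM at 37°C and at 102, 113 and 88.8 TPM at 26°C. Irgm1 (chr11:48756072-48762247, minus strand) was at 137, 327 and 70.1 TPM at 37°C and at 70.2, 95.3 and 47.9 TPM at 26°C. Irgm2 (chr11:58105803-58113609, plus strand) was at 71.3, 105 and 53.6 TPM at 37°C and at 19.1, 20.4 and 13.2 TPM at 26°C. In Igtp and Irgm2 every library at 37°C lay above every library at 26°C, whereas in Irgm1 R3 at 37°C lay just under R1 and below R2 at 26°C. Irgm2 had the narrowest spread of the 3, with 3.73-, 5.16- and 4.07-fold higher levels at 37°C in R1, R2 and R3 and a log2 difference of -2.03 (SD 0.24, n = 3). The log2 difference was -1.17 (SD 0.47) for Igtp and -1.09 (SD 0.63) for Irgm1. Gm12250, Igtp and Irgm2 lie side by side on the same strand of chromosome 11, and their ratios of 37°C to 26°C within a replicate ranged from 1.69 for Igtp in R3 to 53.6 for Gm12250 in R2.

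Among the GBPs, Gbp7 (chr3:142236097-142255912, plus strand) was at 94.5, 106 and 75.3 TPM at 37°C and at 12, 15 and 25.4 TPM at 26°C. Gbp3 (chr3:142265781-142278974, plus strand) was at 71.9, 115 and 80 TPM at 37°C and at 36.3, 57.8 and 58.1 TPM at 26°C. Gbp2 (chr3:142326424-142343769, plus strand) was at 39.6, 45.5 and 9.11 TPM at 37°C and at 7.82, 11.3 and 6.9 TPM at 26°C. Gbp7 and Gbp3 did not overlap between conditions, whereas for Gbp2 R3 at 37°C lay below R2 at 26°C. Gbp7 and Gbp3 had nearly equal levels at 37°C but not at 26°C, with log2 differences of -2.38 (SD 0.74) and -0.80 (SD 0.30). The log2 difference of Gbp2 was -1.49 (SD 0.99), made of -2.20 in R1, -1.92 in R2 and -0.35 in R3. Gm40158, a gene on the opposite strand that overlaps Gbp3, held 0.40 to 0.47 times the TPM of Gbp3 in every library. Whether reads were counted by strand is not stated, so reads of Gbp3 and Gm40158 cannot be told apart.

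**Figure D3:**
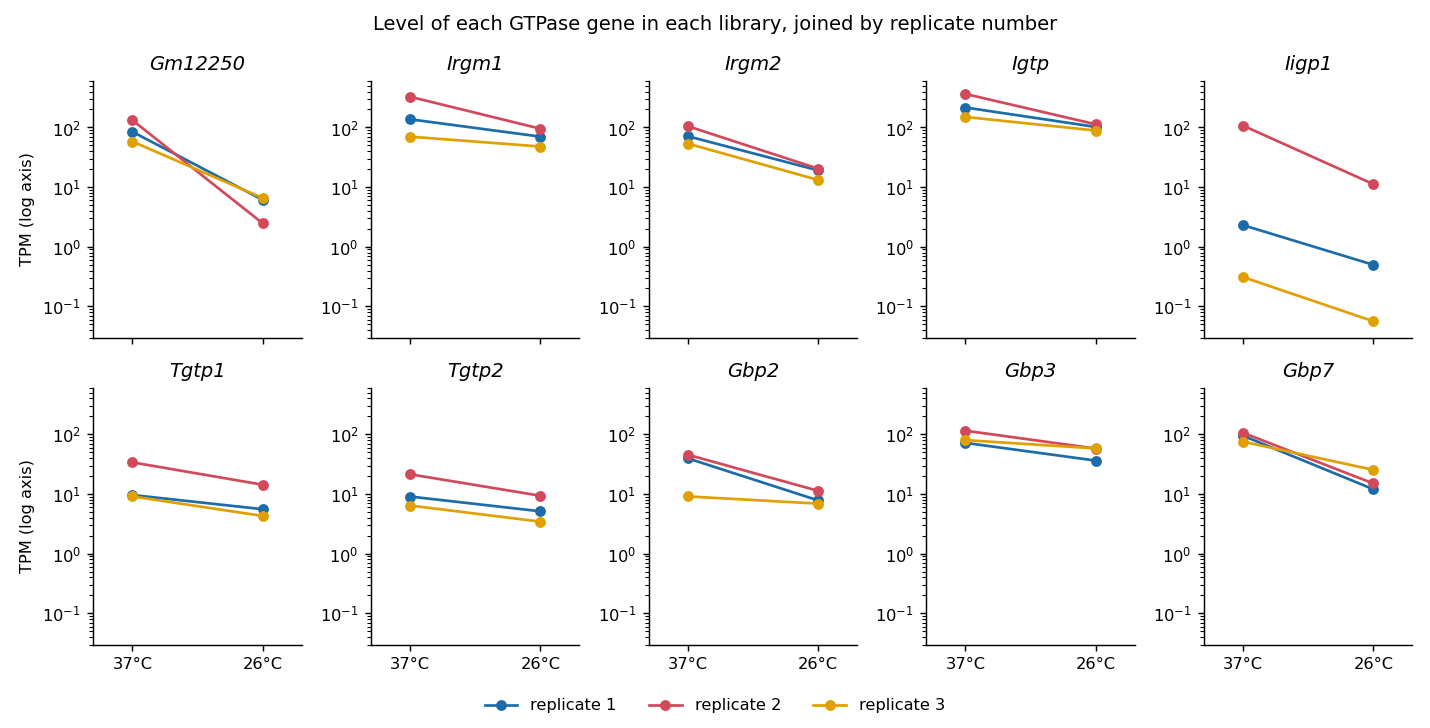
TPM of the 10 GTPase genes on a log axis at 37°C and 26°C, with 1 line per replicate number joining its libraries. All 30 lines slope down, the Gm12250 line of R2 falls from 132 to 2.47 TPM, and the lines of Iigp1 are far apart from each other while nearly parallel.

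All 10 genes were lower at 26°C in all 3 replicates, as were 47.9% of the 12227 tested genes, those whose mean TPM reached 1. Every library at 26°C lay below every library at 37°C for 5 of the 10, namely Gm12250, Irgm2, Igtp, Gbp3 and Gbp7, as for 31.4% of all tested genes. In limma, genes were called when the adjusted p was below 0.05 and the log2 fold change was 1 or more in either direction. By these thresholds 4 of the 10 were past both, namely Gm12250, Irgm2, Igtp and Gbp7, beside 16.0% of all tested genes that were lower and 2.63% that were higher. Because the genes were chosen on this contrast, nothing is read from these counts. The median log2 difference of the 10 was -1.33 and that of all tested genes -0.34. In a median of ratios scaling, which moves the median of all genes to 0.03, the median of the 10 was -0.93, all 10 remained lower in all 3 replicates, and 3 (Gm12250, Irgm2 and Gbp7) were past the thresholds beside 8.60% of genes lower and 6.87% higher. The median of the 10 was -1.11 in R1, -1.84 in R2 and -0.74 in R3, against -0.32, -0.44 and -0.24 over all tested genes. The largest fall among replicates was in R2 for 8 of the 10 genes and in R1 for Gbp2 and Gbp7. The median was -0.72 without non-acclimated R2 and -1.90 without non-acclimated R3, and limma put none of the 10 past the thresholds without R1 in both conditions or without R2 in both conditions, where 3 and 4 of them had an unadjusted p under 0.05, against 5 of the 10 without R3. The share of all tested genes called without a replicate is not given here, so nothing is read from these counts either.

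The levels also had a common order among replicates. At 37°C, R2 was the highest library for all 10 genes and R3 the lowest for all but Gbp3. At 26°C, R2 was the highest for 7 of the 10, the exceptions being Gm12250, Gbp3 and Gbp7, for which R3 was highest. The order of genes by median TPM at 37°C was Igtp, Irgm1, Gbp7, Gm12250, Gbp3, Irgm2, Gbp2, Tgtp1, Tgtp2 and Iigp1. TPM is per length, so these levels can be set side by side. The ranges of neighbours in this order overlapped except those of Irgm2 and Gbp2. At 26°C the order was Igtp, Irgm1, Gbp3, Irgm2, Gbp7, Gbp2, Gm12250, Tgtp1, Tgtp2 and Iigp1, and ranges did not overlap between Gbp3 and Irgm2, between Gbp7 and Gbp2, and between Gbp2 and Gm12250. Gm12250 thus went from the fourth to the seventh place, and Gbp3 from the fifth to the third. Summed over the 10 genes, TPM was 2.78-fold higher at 37°C in R1, 3.88-fold in R2 and 2.01-fold in R3. Fewer transcripts of one kind per cell and fewer cells that hold them cannot be told apart in these bulk libraries.

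Other interferon-inducible GTPases did not share 1 direction. Of 17 with a row in the table, 14 were tested and Gbp5 was downregulated. Gbp5, a GBP whose gene lies 7.99 kb from Gbp7, was at 42.9, 32.1 and 6.8 TPM at 37°C and at 1.57, 2.46 and 1.07 TPM at 26°C. Its groups did not overlap, and its log2 fold change was -3.09 ± 0.63 (SE, n = 3, adjusted p = 0.018). Together with the 3 GBP members, Gbp5 lies in the chromosome 3 cluster, in which all 12 within-replicate differences of the 4 genes were negative. In the chromosome 5 cluster of Gbp4, Gbp6, Gbp8, Gbp9, Gbp10 and Gbp11, 5 of 18 differences were negative and the log2 fold changes ranged from -0.88 to 1.10. Gbp4 was at 135, 88.5 and 144 TPM at 37°C and at 263, 268 and 185 TPM at 26°C. All its libraries at 26°C were above those at 37°C, by 0.97 ± 0.28 (SE, adjusted p = 0.046), under the size threshold, and by 1.38 after median of ratios scaling (adjusted p = 0.026), which is past it. The difference between the clusters was not tested, since 3 of the 4 genes on chromosome 3 were chosen for being lower. On chromosome 18 the neighbouring IRG genes Gm4841 and F830016B08Rik resembled Iigp1 in being highest in R2. Gm4841 was at 3.03, 29.4 and 0.205 TPM at 37°C and at 0.326, 3.56 and 0 TPM at 26°C. F830016B08Rik was at 0.112, 8.05 and 0 TPM at 37°C and at 0, 1.4 and 0 TPM at 26°C. Neither passed the test (adjusted p = 0.36 and 0.6). With the replicate block, calls in this list went from 1 lower to 4 lower (Gbp5, Gm4841, Gvin1 and Gvin2) and 1 higher (Gbp11), with adjusted p = 0.041 for Gm4841 and 0.023 for Gbp11. With the block and median of ratios scaling together, 2 were lower (Gbp5 and Gvin2) and 3 higher (Gbp4, Gbp6 and Gbp11).

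**Figure D4:**
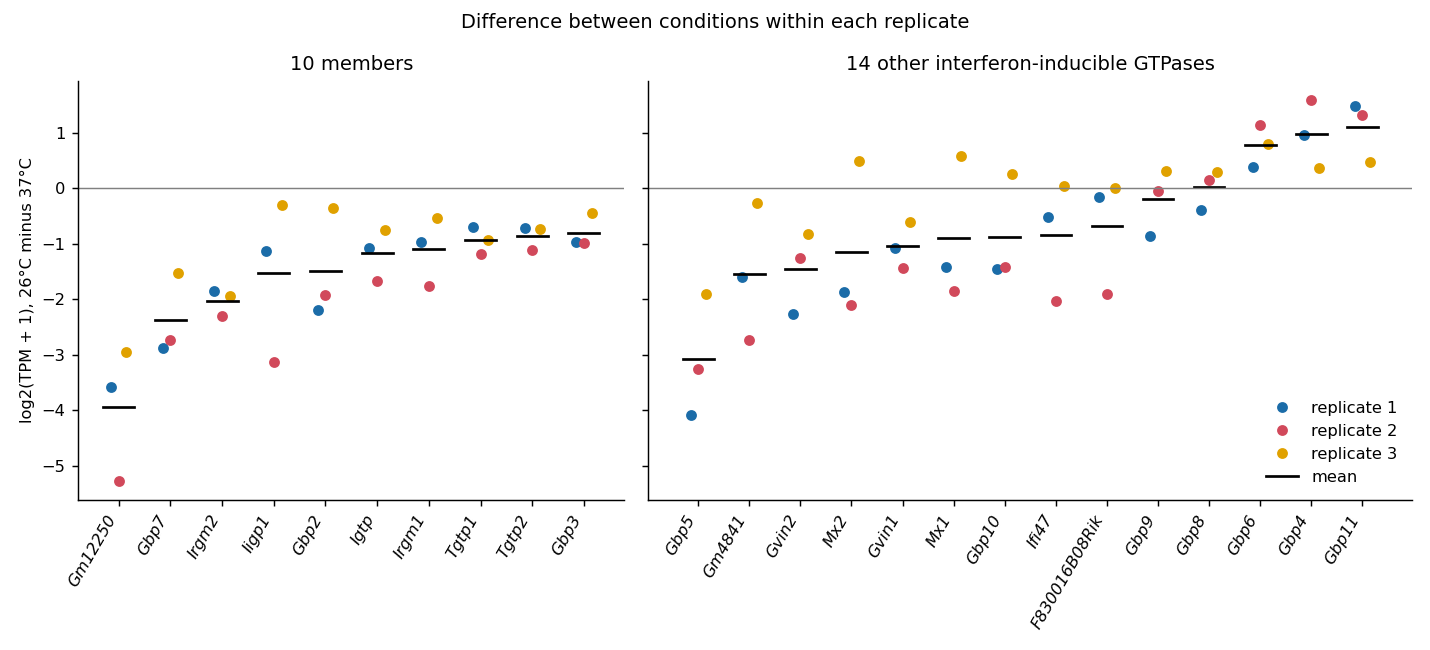
Difference in log2(TPM + 1), 26°C minus 37°C, within each replicate (points) and its mean (black bars) for the 10 members and for 14 other tested interferon-inducible GTPases. All member points are below 0, whereas the other GTPases run from Gbp5 at a mean of -3.09 to Gbp11 at a mean of 1.10.

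The 8 lists of other interferon pathway genes, signalling genes and others together, held 138 genes in all, of which 121 were tested. Of these, 23 were downregulated and 3 upregulated, that is 19% and 2.48%, close to the shares of all tested genes given above. The replicate block raised this to 41 and 5, the block with median of ratios scaling gave 20 and 8, and median of ratios scaling alone gave 12 and 5, so the share of upregulated genes among those called went from 11.5% to 29.4%. Without R3 in both conditions 58 were downregulated and 5 upregulated. Without R1 or without R2 limma called none, with 18 lower and 1 higher, and 22 lower and 2 higher, at an unadjusted p under 0.05. Shares of all tested genes are not given for fits with the replicate block or without a replicate. Nothing is read from the counts of those fits, here or for single lists.

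Among ligands, Ifng, which encodes interferon-gamma, was listed at 0 in all 6 libraries, as were Ifna1 and Ifnk. Ifnb1, which encodes interferon-beta, was at 4.91, 17.1 and 0 TPM at 37°C and at 0.556, 2.41 and 0 TPM at 26°C. Ifna4, whose reads can be shared with other interferon-alpha genes, was at 23, 35.7 and 0.085 TPM at 37°C and at 2.48, 4.2 and 0.2 TPM at 26°C. Neither passed the test over the 3 replicates (adjusted p = 0.33 and 0.34), and both were present in R1 and R2 and at or near 0 in R3. Of the interferon-lambda genes, Ifnl2 was at 12.2, 16.3 and 0 TPM at 37°C and at 0.626, 0.15 and 0 TPM at 26°C. Ifnl3 was at 6.24, 3 and 0 TPM at 37°C and at 0 in all libraries at 26°C. Neither was past the thresholds in limma (adjusted p = 0.13 and 0.12). With the replicate block Ifnl2 was (-2.31, adjusted p = 0.041) and Ifnl3 was not (adjusted p = 0.053). With the block and median of ratios scaling together neither was. Whether the levels of these ligands bear on those of the members was not tested. Without R3 in both conditions, the adjusted p in limma was 0.045 for Ifnb1, 0.0045 for Ifna4, 0.0035 for Ifnl2 and 0.0074 for Ifnl3. Among receptors, Il10rb, a chain shared by the receptors of interleukin-10 and interferon-lambda, was at 23.4, 22.9 and 18.6 TPM at 37°C and at 8.42, 6.91 and 7.42 TPM at 26°C. It was downregulated by 1.40 ± 0.24 (SE, adjusted p = 0.011). Ifnar1, a chain of the type I receptor, had a log2 fold change of -1.11 ± 0.33 (adjusted p = 0.052). Its adjusted p was 0.038 with the replicate block, and 0.11 with the block and median of ratios scaling together. The chains of the interferon-gamma receptor were not past the thresholds, with log2 fold changes of -0.46 ± 0.47 for Ifngr1 and -0.47 ± 0.24 for Ifngr2 (adjusted p = 0.52 and 0.19).

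Of 13 tested kinases and transcription factors, 4 were downregulated, among them Tyk2, Irf2 and Irf3. Irf2, which binds the same sites as IRF1, was at 26.5, 20 and 10.6 TPM at 37°C and at 0.451, 0.434 and 0.835 TPM at 26°C, a log2 fold change of -3.59 ± 0.37 (adjusted p = 0.0067). Irf3, which switches on interferon-beta, was at 40, 50 and 45.3 TPM at 37°C and at 10.1, 9.87 and 10.3 TPM at 26°C, a log2 fold change of -2.05 ± 0.22 (adjusted p = 0.0067). Tyk2, Irf2 and Irf3 were past the thresholds after median of ratios scaling as well. Irf1 had a log2 fold change of -0.86 ± 0.25 (adjusted p = 0.047), under the size threshold. Stat2 and Irf9, which act together in the type I pathway, had values of -1.27 ± 0.58 and -1.52 ± 0.46 (adjusted p = 0.15 and 0.053), and both were past the thresholds with the replicate block (adjusted p = 0.025 and 0.007). With the block and median of ratios scaling together Irf9 was past them (-1.12, adjusted p = 0.017) and Stat2 was not (-0.87, adjusted p = 0.062). Jak1 and Jak2, the kinases of the interferon-gamma receptor, had values of -0.54 ± 0.31 and -0.04 ± 0.24 (adjusted p = 0.24 and 0.92).

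Of 12 inhibitors, Ptpn6, Ptpn11 and Trim24 were downregulated and Cish was upregulated. Usp18 was not past the thresholds in this fit (-2.36 ± 1.18, adjusted p = 0.19). With the replicate block Usp18 was past them (adjusted p = 0.0083), and also with the block and median of ratios scaling together. The phosphatase gene Ptpn6 was at 112, 106 and 127 TPM at 37°C and at 28.5, 13.7 and 54.7 TPM at 26°C (log2 fold change -2.00 ± 0.45, adjusted p = 0.023). Ptpn11, another phosphatase gene, had a value of -1.15 ± 0.25 (adjusted p = 0.021), and -0.75 after median of ratios scaling (adjusted p = 0.052). Trim24 was at -0.72 after that scaling (adjusted p = 0.1), so neither it nor Ptpn11 was past the thresholds there. Socs1, the feedback inhibitor of JAK kinases, was at 81.6, 47.6 and 277 TPM at 37°C and at 92.5, 65.8 and 68.1 TPM at 26°C, and did not pass the test (-0.46 ± 0.59, adjusted p = 0.61). Its level at 37°C was highest in R3, the replicate that also differed in Cd4. A relation of Socs1 to the levels of the members was not tested.

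Of 37 tested antiviral genes, 9 were downregulated, and 4 after median of ratios scaling, 17 with the replicate block. Oas3, an enzyme of the RNase L pathway, was at 146, 137 and 57.4 TPM at 37°C and at 10.5, 13.5 and 11.4 TPM at 26°C (log2 fold change -3.05 ± 0.38, adjusted p = 0.007). Parp14, a mono-ADP-ribosyltransferase, was at 71, 56.7 and 38.8 TPM at 37°C and at 17.1, 13.9 and 14.1 TPM at 26°C (-1.78 ± 0.28, adjusted p = 0.0093). Of 13 tested genes of antigen presentation, which interferon-gamma also induces, limma called none in either direction, with 2 lower and 0 higher at an unadjusted p under 0.05, and voom called none, with 0 lower and 2 higher. The 2 with the smallest p were Psmb9, an immunoproteasome subunit (-1.14 ± 0.46, adjusted p = 0.11), and Tap1, a peptide transporter (-0.84 ± 0.34, adjusted p = 0.12). In limma without R3 in both conditions, Psmb9 (-1.75, adjusted p = 0.0087) and Tap1 (-1.14, adjusted p = 0.012) were past the thresholds. Neither was past them with the replicate block or after median of ratios scaling. The list's median log2 fold change was 0.01, beside -0.34 for all tested genes.

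The conjugation genes that guide IRG proteins and GBPs to membranes went in both directions. Of 13 tested, Gabarapl1 and Atg16l1 were upregulated and Atg12 was downregulated. Gabarapl1, which encodes a ubiquitin-like protein of the ATG8 family, was at 82.8, 85.4 and 84 TPM at 37°C and at 250, 316 and 261 TPM at 26°C (1.69 ± 0.21, adjusted p = 0.007). Atg16l1, part of the ligase that attaches ATG8 proteins to membranes, was at 21, 19.6 and 35.6 TPM at 37°C and at 58.4, 45 and 60.4 TPM at 26°C (1.11 ± 0.29, adjusted p = 0.036). Atg12, a ubiquitin-like protein of the same ligase, had a value of -1.56 ± 0.31 (adjusted p = 0.016). All 3 were past the thresholds after median of ratios scaling too. Of 10 tested genes in the list of inflammasomes and cytosolic sensing, Pycard, Casp8, Gsdmd and Sting1 were downregulated. GBPs and Irgb10 act on inflammasomes by freeing bacterial ligands, and Sting1 and Cgas are in the list as genes of cytosolic sensing. Casp8, a caspase of cell death, was at 116, 113 and 98.1 TPM at 37°C and at 42.3, 39.8 and 45 TPM at 26°C (-1.34 ± 0.20, adjusted p = 0.0088). Gsdmd, the pore protein of pyroptosis, had a value of -1.13 ± 0.24 (adjusted p = 0.021). None of these 4 was past both thresholds after median of ratios scaling, where their log2 fold changes ran from -0.97 for Pycard to -0.72 for Gsdmd and Aim2 was past them in the higher direction (1.04, adjusted p = 0.027).

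**Figure D5:**
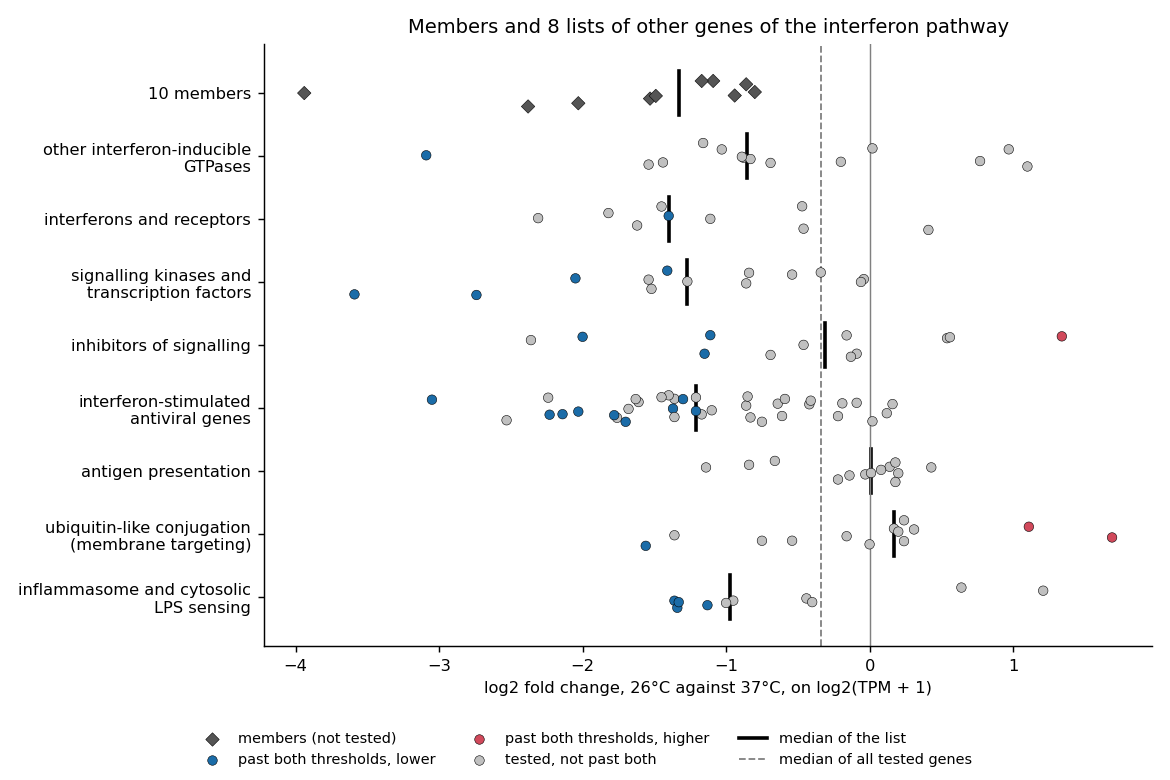
Log2 fold change of 26°C against 37°C for the 10 members (diamonds, not tested) and for the tested genes of 8 lists of the interferon pathway (circles), with blue and red for genes past both thresholds. Black bars are list medians and the dashed line is the median of all tested genes, -0.34. Antigen presentation lies around 0.01, and the signalling list reaches -3.59 with Irf2.

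The profile of Gm12250 over the 6 libraries was compared with that of 9742 other genes whose mean TPM reached 5, by Pearson's r of log2(TPM + 1). Among the 5 most alike were 4933431K14Rik, Ubox5, Naa80 and Nup35, with r of at least 0.996. None of these is in the interferon pathway lists used here. Like Gm12250, they were highest in R2 at 37°C and lowest in R2 at 26°C. Nup35, a nuclear pore gene, was at 31.5, 39.6 and 28.2 TPM at 37°C and at 9.94, 5.41 and 9.68 TPM at 26°C. Among the other members r ran from 0.36 for Iigp1 to 0.96 for Gbp7, with a median of 0.76 against 0.43 over all genes compared. The members were chosen for being lower at 26°C like Gm12250, which by itself favours a high r. Nothing is therefore read from 0.76 against 0.43. The median of the members was 0.57 after median of ratios scaling. After the mean of each condition was removed, r of the members with Gm12250 lay between 0.03 for Tgtp1 and 0.50 for Igtp. No value over all genes is given beside 0.57 or beside this range, so nothing is read from them either. These are descriptions over 6 libraries that share the contrast and the replicate numbers.

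The nearest tested genes of Gm12250 outside the group did not pass the test. Mrpl22, a mitochondrial ribosomal protein gene 4.26 kb away, was at 36.3, 62.8 and 58 TPM at 37°C and at 56.2, 42.3 and 49.3 TPM at 26°C (-0.06 ± 0.28, adjusted p = 0.9). Gemin5, a gene of the SMN complex 15.3 kb away, was at 44.4, 66.3 and 84 TPM at 37°C and at 37, 31.7 and 33.5 TPM at 26°C (-0.87 ± 0.28, adjusted p = 0.063). Within 100 kb of any of the 10 members, 24 other genes were tested. Of these, Gbp5 and Kyat3 were downregulated, and Faxdc2, Smim3 and Snord96a were upregulated.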

How the data were processed

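Poly(A)+ RNA of 6 D10 libraries was sequenced with a strand-specific kit. The authors trimmed the reads, mapped them to GRCm39, counted them over genes and deposited the result as TPM. The submitters' processing notes name FastQC 0.11.7, Trimmomatic 0.38, HISAT2 2.1.0 and featureCounts 1.6.3. For the annotation release, the strand setting and the treatment of reads that match several genes, nothing is given in the sources used here. From these TPM values, whole reads were recovered for 21192 of the 21195 genes above 0 (within 1e-06 reads), which gave the depth of each library.

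All 12227 genes whose mean TPM reached 1 entered a single fit of log2(TPM + 1) in limma 3.58.1 (R 4.3.3, two-sided moderated test, prior variance following the mean, Benjamini-Hochberg adjustment). A call needed an adjusted p below 0.05 together with a log2 fold change of 1 or more in either direction. A fold change on this scale understates the change of low genes. The p-values measure the spread between these libraries, which the labels call biological replicates. The fit was tested on simulated data. Alternatives were a pseudocount of 0.1, no filter, median of ratios scaling, a replicate block, voom on the recovered reads and each library left out. The 10 GTPases and the lists were chosen with earlier results of these data known.

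The replicate numbers pair the libraries. Deviations from the condition means correlated at 0.48, 0.50 and 0.51 across genes for libraries with the same number, and at -0.41 to 0.02 for different numbers.

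Named were all 10 members, the 2 genes with the smallest p in each of the 8 lists, Ifng, Ifngr1, Ifngr2, Jak1, Jak2, Stat2, Irf1, Irf9, Socs1, the 5 genes most like Gm12250, its 2 nearest tested neighbours, Cd4, Cd3e and Gata3. Other genes were named after their values were seen, and a few that the rule or the marker lists name are not reported here. Of 140 list entries, 136 matched by symbol and 2 by a RefSeq synonym, 1 was a member under another name, and 1 did not match. Promoters were those of RefSeq, and coding sequences those of GENCODE, aligned with Biopython 1.88. Other values were computed with Python 3.11.15 and drawn with matplotlib 3.10.9.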

Additional observations from a re-analysis of the deposited data

How the results depend on the processing

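The log2 difference of the 10 members was below 0 in 149 of 150 combinations of member and alternative. The exception was Iigp1, whose value ran from -2.81 to 0.37 when single libraries were left out, the latter without non-acclimated replicate 2. The paired fit, with a replicate block, put 6 of the 10 past the thresholds against 4 without it, and 3 together with median of ratios scaling, a combination added after seeing the data. Leaving out single libraries gave 3 to 5, and medians of the 10 between -1.90, when non-acclimated replicate 3 was dropped, and -0.72, when non-acclimated replicate 2 was. With a replicate left out of both conditions, chosen after seeing the data, 0 to 5 were past the thresholds. Shares of all tested genes are given here only for the fit as reported and for median of ratios scaling. Nothing is read from the counts of the other fits. The median without Iigp1, also added later, was -1.17.

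For the 121 other pathway genes, 23 were lower and 3 higher as reported. The counts were 12 and 1 with no filter on low values, 12 and 5 with median of ratios scaling, 41 and 5 with the replicate block, 11 and 5 with voom on recovered reads, and 20 and 8 with the replicate block and median of ratios scaling together. The median r of the other members with Gm12250 went from 0.76 to 0.57 with median of ratios scaling. Leaving out a library gave 3 lower when non-acclimated replicate 2 was dropped and 52 when non-acclimated replicate 3 was. There were 6 without non-acclimated replicate 1, and 7 each without cold-acclimated replicate 1 and replicate 2. The cases of 3, 6 and 7 lower had 1 higher each, and the case of 52 had 3 higher. Without cold-acclimated replicate 3 there were 24 lower and 3 higher. A replicate left out of both conditions gave 0 to 58 lower and 0 to 5 higher. Shares of all tested genes are given only for the fit as reported and for median of ratios scaling, so nothing is read from the other counts. The causes were not tested. Depth limits Iigp1 most, with 2 reads in cold-acclimated replicate 3.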
